A study of Mus musculus with 5 samples.

Results

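The metallothionein genes Mt1, Mt2 and Mt3 were followed through 5 single-cell libraries of the mouse dentate gyrus, the entry region of the hippocampal circuit. The members were the rows whose symbol matched 1 of these names, 3 of 78334 listed genes, with the identifiers ENSMUSG00000031765.9 (Mt1), ENSMUSG00000031762.8 (Mt2) and ENSMUSG00000031760.10 (Mt3). RNA was counted in dissociated cells of wild-type mice taken 14 days after contextual fear conditioning, in which a place is paired with a foot shock (CFC-14d), or 14 days after foot shocks given at random (Random-14d). A second experiment used nuclei of frozen tissue from mice labelled as Csf2rb2 knockout 14 days after conditioning (KO-CFC), wild-type mice 14 days after conditioning (WT-CFC) and untrained wild-type mice (WT-naive). Each group held 10 mice and gave 1 library, so no difference between groups could be tested, and the 95% intervals below cover counting error only. Mt4, the neighbouring gene of the family, had 1 count in CFC-14d and 0 in each other library. Strain, sex, age and the cells in which the knockout acts are not given in the sources used here.

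Metallothioneins are small, cysteine-rich proteins that bind zinc and copper and take up reactive oxygen. Mt1 and Mt2 are made in many tissues, in brain mostly by astrocytes, and their transcription rises with zinc through the factor MTF1, which binds metal response elements, and with glucocorticoids, oxidative stress and STAT3 signalling. Mt3, first described as a growth inhibitory factor of brain, is found in astrocytes and in zinc-rich neurons of the hippocampus and responds little to zinc.

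The sequences around an annotated start of each of the 3 genes are shown with their matches to the metal response element. Mt3, Mt2 and Mt1 lie in this order on the plus strand of chromosome 8, Mt3 at 94152607 to 94154148, Mt2 at 94172618 to 94173567 and Mt1 at 94178883 to 94180327 in build GRCm38.p6, which is older than the build of the counts and was used for sequence only. Each window holds the 250 bases before and the first 50 bases from a start annotated by RefSeq, and capitals mark matches on either strand to the metal response element core TGCGCNC or its variant TGCACNC.
Mt1 promoter, chr8:94178839-94179138, plus strand: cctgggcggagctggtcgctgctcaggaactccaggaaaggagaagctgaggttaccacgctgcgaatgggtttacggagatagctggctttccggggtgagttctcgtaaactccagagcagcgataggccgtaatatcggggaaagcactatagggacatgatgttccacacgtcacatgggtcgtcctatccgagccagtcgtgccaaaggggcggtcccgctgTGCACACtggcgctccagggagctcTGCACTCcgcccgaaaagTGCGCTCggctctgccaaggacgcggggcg
Mt2 promoter, chr8:94172368-94172667, plus strand: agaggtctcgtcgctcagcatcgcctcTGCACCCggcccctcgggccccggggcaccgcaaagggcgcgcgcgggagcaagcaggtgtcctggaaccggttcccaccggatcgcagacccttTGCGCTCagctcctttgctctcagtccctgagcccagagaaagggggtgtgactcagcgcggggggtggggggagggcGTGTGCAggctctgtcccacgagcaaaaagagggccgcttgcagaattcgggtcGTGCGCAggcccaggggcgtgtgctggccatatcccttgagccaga
Mt3 promoter, chr8:94152357-94152656, plus strand: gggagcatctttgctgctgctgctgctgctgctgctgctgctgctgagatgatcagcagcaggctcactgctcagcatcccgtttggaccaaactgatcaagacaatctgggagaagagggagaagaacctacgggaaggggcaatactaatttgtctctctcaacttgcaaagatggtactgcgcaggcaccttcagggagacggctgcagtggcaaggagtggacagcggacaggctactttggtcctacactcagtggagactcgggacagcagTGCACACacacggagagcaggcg
The start used for Mt1 lies inside its gene span and not at the first base. Most of the Mt1 window therefore lies inside that span, unlike the windows of Mt2 and Mt3. Positions count from the start each window used. The Mt1 window held 3 matches, starting at positions -23, 3 and 21 from the start, and the Mt2 window held 4, at -223, -128, -50 and 5. The Mt3 window held 1 match, a variant at position 28. Over 32851 RefSeq promoter windows of this length, 25.7% held at least 1 match to either form, 1.97% held 3 or more and 0.517% held 4 or more. Mt2 also held the antioxidant response element core TGACNNNGC at position -79, a motif found in 12.4% of windows. None of the 3 windows held the glucocorticoid half-site TGTTCT or the STAT site TTCNNNGAA, which were found in 19.0% and 8.30% of windows. The transcripts of any pair of the 3 members share at most 27 identical bases in a row. A match describes letters, not binding, and sequence outside the windows was not examined.

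The libraries held 38045642 to 126937815 UMIs (unique molecular identifiers, 1 for each captured RNA molecule), and 7330 to 28606 barcodes were kept. Libraries of the same experiment shared 25 to 282 cell barcodes. The dissociated cells held microglia-like, choroid plexus-like, vascular and blood-like classes and no class named as granule neurons, whereas the nuclei held granule neuron-, mossy cell- and CA3-like classes. The library labelled KO-CFC stood apart from both wild-type nuclei libraries. Csf2rb2 RNA, which encodes a receptor subunit, was present in it, at 87.4 CPM (counts scaled to a common total) in mossy cell-like nuclei, against 113 CPM in WT-CFC and 93.6 CPM in WT-naive, so it is called by its label here; its title names Csf2rb2 and its genotype tag another gene, Csf2rb3. Every class of it carried Igkc, an immunoglobulin light chain of plasma cells, at 119 CPM or more, against 0.902 CPM or less in the wild-type classes, and of the T or NK-like nuclei 199 were its own, 0 of WT-CFC and 1 of WT-naive. Most of its nuclei in several classes clustered apart from the wild-type ones of the same class. Of its 524 astrocyte-like nuclei, 474 fell in a cluster that held 3 nuclei of WT-CFC and 0 of WT-naive.

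In dissociated cells all 3 members were highest in the astrocyte-like class. This class also carried RNA of other types. Its 11 astrocyte markers summed to 12404 CPM in CFC-14d and 10750 CPM in Random-14d. The 11 microglia markers summed to 6110 and 6659 CPM, and the 9 choroid plexus markers to 57369 and 76465 CPM. The part of such RNA in the levels was not tested. Mt1 stood at 3345 CPM in CFC-14d (3239 to 3454, 631 cells) and 2861 CPM in Random-14d (2757 to 2969, 567 cells). CPM are the summed counts of a class scaled to its total UMIs. Capture of RNA may differ between genes and was not measured, so ratios between genes are ratios of UMIs. Mt3 stood at 2396 CPM in CFC-14d and 2155 CPM in Random-14d. Mt2 was the lowest of the 3 there, at 556 CPM in CFC-14d and 437 CPM in Random-14d. Mt1 thus gave 6.02 UMIs for each of Mt2 in CFC-14d (5.53 to 6.56) and 6.54 in Random-14d (5.91 to 7.26).

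The members differed in what came after the astrocytes, and in by how much. Mt1 in astrocyte-like cells was 4.53-fold the next class in CFC-14d and 4.42-fold in Random-14d. That class was the border-associated macrophage-like cells of the brain surface and vessels, at 739 and 647 CPM. Most further neighbours in the Mt1 order had overlapping intervals, and erythroid-like cells were lowest, at 133 CPM in CFC-14d and 95.2 CPM in Random-14d. For Mt2 the next class was endothelial-like, at 93.5 CPM in CFC-14d and 83.9 CPM in Random-14d, so the step from astrocytes was 5.94-fold and 5.21-fold. Mt3 fell off least, by 1.48-fold in CFC-14d and 1.47-fold in Random-14d to platelet-like barcodes, at 1621 and 1462 CPM, followed by choroid plexus epithelial-like cells, at 1447 and 1276 CPM. Choroid plexus-like cells carried 6.03 UMIs of Mt3 for each of Mt1 and Mt2 together in CFC-14d and 6.35 in Random-14d, against 0.61 and 0.65 in astrocyte-like cells. UMIs of Mt1 for each of Mt2 were at 17.0 in CFC-14d and 14.5 in Random-14d in choroid plexus-like cells, and at 25.1 and 19.2 in border-associated macrophage-like cells. Endothelial-like cells, the lining of vessels, had 4.79 and 5.47.

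**Figure D1:**
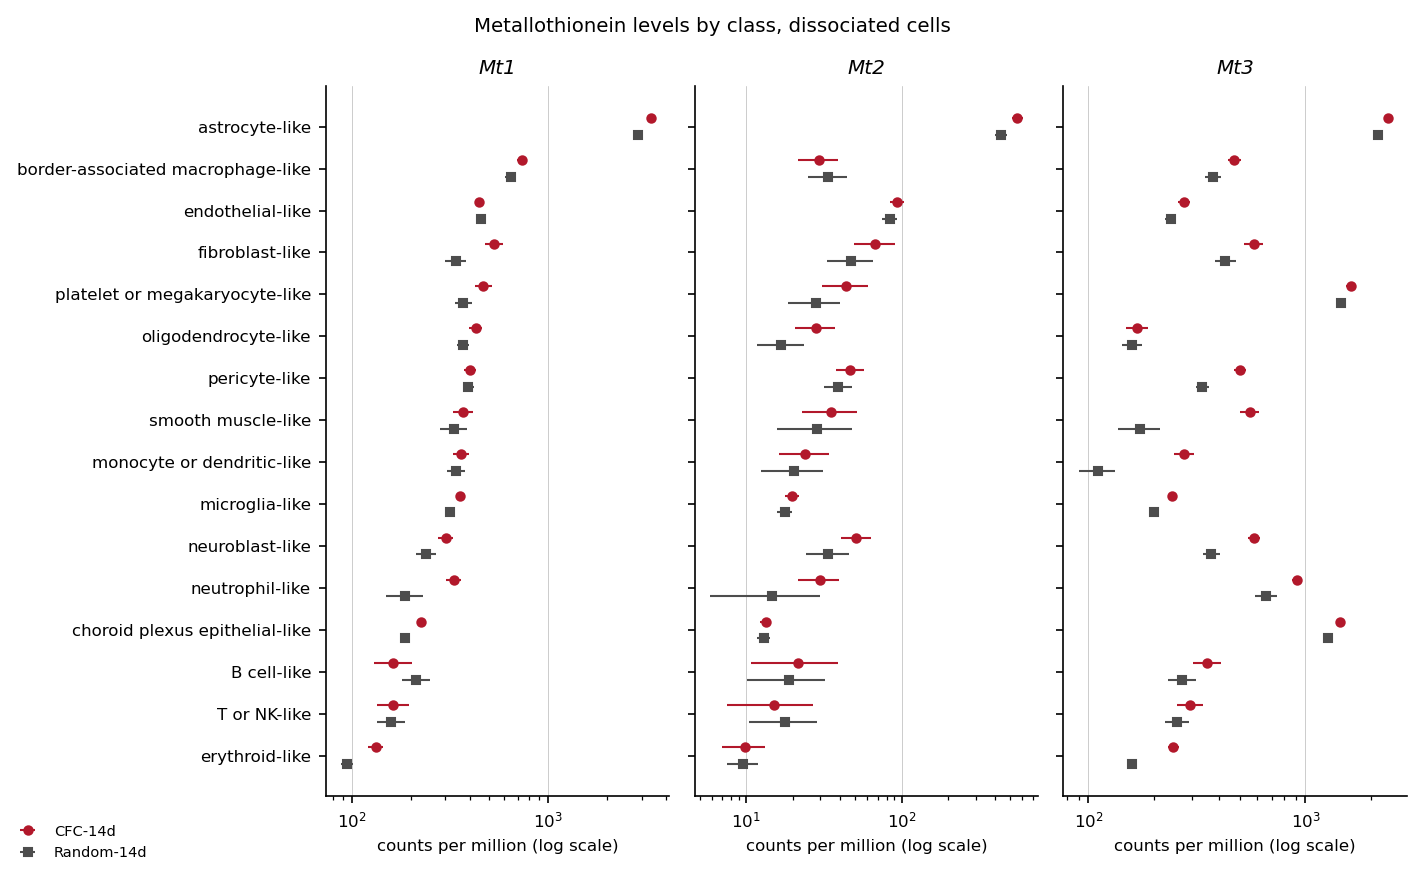
Level of each metallothionein in 16 classes of dissociated cells, in CPM on a log axis, with CFC-14d and Random-14d as separate points and bars for 95% Poisson counting intervals. Astrocyte-like cells stand highest in all 3 panels, with a wide gap for Mt1 and Mt2 and a narrow one for Mt3.

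The level of Mt3 outside astrocytes moved with choroid plexus RNA. Ttr, the transthyretin gene of choroid plexus epithelium, stood at 348576 CPM in that class in CFC-14d and 367951 CPM in Random-14d, and was never below 18364 CPM in any class of cells. Over the 15 classes other than astrocytes, log2 Mt3 and log2 Ttr had a Pearson r of 0.95 in CFC-14d and 0.95 in Random-14d, as a description across classes that share a library. For Mt1 the same r was 0.13 in CFC-14d and -0.14 in Random-14d, and for Mt2 0.14 and -0.11. Platelet-like barcodes held 175096 CPM of Ttr in CFC-14d and 235175 CPM in Random-14d. Astrocyte-like cells held 56812 and 75763 CPM and had 42.2 Mt3 counts for each 1000 of Ttr in CFC-14d and 28.4 in Random-14d, against 4.2 and 3.5 in choroid plexus-like cells. The part of free choroid plexus RNA in the Mt3 of other classes was not tested.

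**Figure D2:**
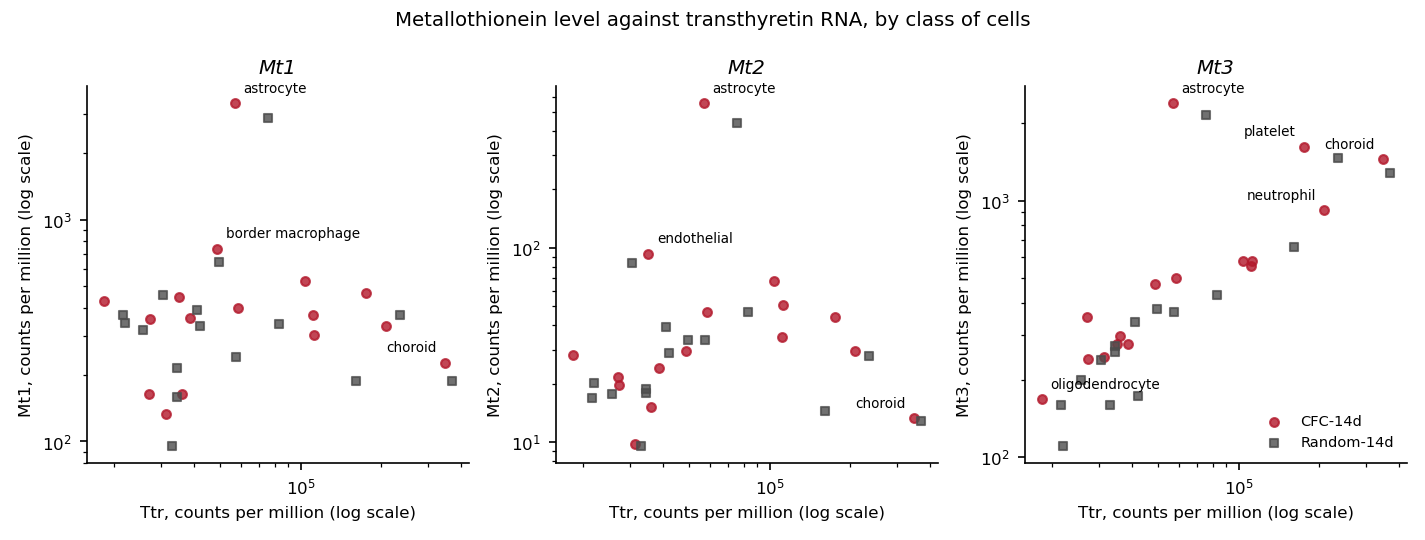
Level of each metallothionein against Ttr, both in CPM on log axes, with circles for CFC-14d, squares for Random-14d and 1 point for each of 16 classes. Mt3 climbs with Ttr in all classes but astrocytes, which lie above the others, while Mt1 and Mt2 show no such course.

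In the main clustering the metallothioneins of astrocyte-like cells differed by less than 1.5-fold between CFC-14d and Random-14d. The log2 ratio was 0.23 for Mt1 (0.15 to 0.30), 0.35 for Mt2 (0.17 to 0.53) and 0.15 for Mt3 (0.07 to 0.24), and 0 of 3 members passed 1.5-fold, where 2.1% of 3479 genes were higher and 1.47% lower by that much. Set against the astrocyte genes of the same cells, the levels lay closer. For each 100 counts of 8 astrocyte genes such as Aqp4 and Slc1a2, there were 28.0 of Mt1 in CFC-14d and 27.9 in Random-14d, 4.65 and 4.26 of Mt2, and 20.04 and 21.02 of Mt3. The log2 ratios were 0.057, 0.054 and 0.017 for Mt1, Mt2 and Mt3 when each cell had equal weight. With each library clustered on its own, Mt1 turned to -0.47 and Mt2 to -0.62. Mt2 was then lower in CFC-14d by more than 1.5-fold. The CFC-14d astrocyte-like class then held 131238 CPM of Ttr and 1848 CPM of Slc1a2, a glutamate transporter of astrocytes, against 84815 and 3926 CPM in Random-14d. With at least 1000 UMIs and 500 genes asked of each cell, all cells were clustered and named again. The astrocyte-like class then held 58 and 60 cells, under the minimum of 100 barcodes in each library asked of a comparison. It carried 130597 CPM of Ttr and 2300 CPM of Slc1a2 in CFC-14d, and 131416 and 2403 CPM in Random-14d. In the main clustering, 298 and 270 astrocyte-like cells had at least 1000 UMIs.

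Over all classes of cells, 2 of 16 passed 1.5-fold for Mt1, 1 of 7 for Mt2 and 4 of 16 for Mt3, all higher in CFC-14d, where 2.97% of the genes of all classes together were higher and 1.96% lower by that much. For Mt1 these were neutrophil-like cells (log2 ratio 0.82, where 25.3% of all genes were higher by 1.5-fold, and 1 cluster held 408 of 479 cells in CFC-14d but 11 of 120 in Random-14d) and fibroblast-like cells (0.65, with 3.1% of genes). For Mt2 it was neuroblast-like cells, the immature neurons of the region, at 0.59, with 3.67% of genes. Mt3 was at 553 CPM in smooth muscle-like cells of CFC-14d, against 172 CPM in Random-14d, a log2 ratio of 1.68. Ttr in the same cells was at 110918 and 42147 CPM. In monocyte or dendritic-like cells Mt3 was at 276 and 110 CPM, and Ttr at 38550 and 21950 CPM. Neuroblast-like cells held 581 and 369 CPM of Mt3, and 112083 and 57455 CPM of Ttr. Erythroid-like cells had a log2 ratio of 0.63, with 247 CPM of Mt3 in CFC-14d and 159 CPM in Random-14d, and their Ttr was at 31363 and 32860 CPM. Smooth muscle, monocyte or dendritic and erythroid-like classes had 10.3%, 4.21% and 7.04% of genes higher by that much.

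In nuclei the astrocyte-like class was again highest for all 3 members, at lower levels than in cells. Mt1 stood at 1730 CPM in the KO-CFC-labelled library (1648 to 1815, 524 nuclei), 510 CPM in WT-CFC (481 to 541, 886 nuclei) and 396 CPM in WT-naive (369 to 424, 874 nuclei). Mt3 stood at 1000 CPM in the KO-CFC-labelled library (938 to 1065), 446 CPM in WT-CFC (419 to 475) and 328 CPM in WT-naive (303 to 353). Mt2 stood at 317 CPM (282 to 354), 111 CPM (97.8 to 126) and 76.3 CPM (64.8 to 89.3) in the same order. None of the intervals of a member overlapped between the libraries. They cover counting error only, and the share of all genes without overlap is not given, so this says nothing particular to the members. Cells and nuclei came from separate experiments with different preparation, so their levels were not compared further.

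CA3-like nuclei, from the neurons that receive the granule cells' axons, were lowest for Mt1 and Mt2 in all 3 libraries. Mt1 there was at 59.5 CPM in the KO-CFC-labelled library, 19.7 CPM in WT-CFC and 18.1 CPM in WT-naive. Mt3 there was at 113, 62.5 and 55.1 CPM. Granule neuron-like nuclei gave 1.55 UMIs of Mt3 for each of Mt1 and Mt2 together in the KO-CFC-labelled library (1.44 to 1.68), 2.10 in WT-CFC (1.87 to 2.37) and 2.09 in WT-naive (1.84 to 2.38). In astrocyte-like nuclei this ratio was 0.49 (0.45 to 0.53), 0.72 (0.66 to 0.78) and 0.69 (0.63 to 0.77) in the same order. The intervals of these 2 classes did not overlap in any of the 3 libraries. Mt1 over Mt2 was 3.12, 3.09 and 3.73 in mossy cell-like nuclei, the excitatory neurons of the hilus, and 5.46, 4.59 and 5.19 in astrocyte-like nuclei.

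**Figure D3:**
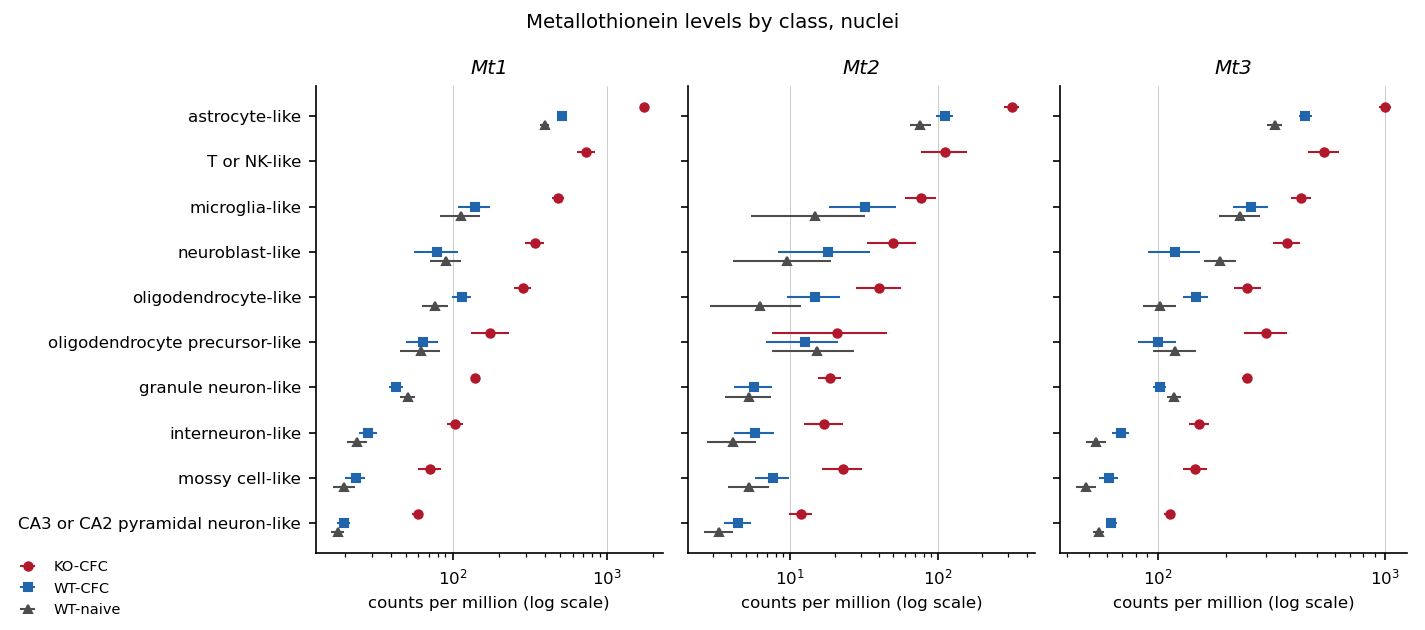
Level of each metallothionein by class of nuclei, in CPM on a log axis, for KO-CFC, WT-CFC and WT-naive, with bars for 95% Poisson counting intervals. The KO-CFC point stands highest in each class, with intervals that overlap those of a wild-type library for Mt2 in neuroblast-like and oligodendrocyte precursor-like nuclei, and astrocytes stand highest in every library.

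Astrocyte-like nuclei of WT-CFC held more RNA of all 3 members than those of WT-naive, within 1.5-fold. WT-CFC over WT-naive gave a log2 ratio of 0.36 for Mt1 (0.23 to 0.50), 0.54 for Mt2 (0.25 to 0.84) and 0.45 for Mt3 (0.30 to 0.59). None of the 3 passed 1.5-fold, against 6.1% of 6938 genes higher and 3.52% lower. Per 100 astrocyte-gene counts, Mt1 was at 4.40 in WT-CFC and 4.27 in WT-naive, Mt2 at 0.96 and 0.82, and Mt3 at 3.85 and 3.53. With each nucleus weighted equally the ratios were 0.21, 0.51 and 0.21. Granule neuron-like nuclei went the other way, with Mt1 at 42.9 CPM in WT-CFC and 51.4 CPM in WT-naive (log2 ratio -0.26, -0.48 to -0.04) and Mt3 at 102 and 118 CPM (-0.21, -0.36 to -0.07). Summed ribosomal protein RNA was lower in the same nuclei, at 6930 CPM in WT-CFC and 7855 CPM in WT-naive (-0.18), and scaled to it Mt1 was at -0.081 and Mt3 at -0.031. In astrocyte-like nuclei it was at 8417 and 8397 CPM. Mt3 in neuroblast-like nuclei was the 1 value past 1.5-fold, of 9 classes for Mt1, 2 for Mt2 and 9 for Mt3. It stood at 119 CPM in WT-CFC and 188 CPM in WT-naive (-0.65, -1.12 to -0.22), where 3.76% of genes were lower by that much. Over all 9 classes together, 3.85% of genes were higher and 2.67% lower.

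The library labelled KO-CFC had more RNA of all 3 members than either wild-type library, in every class compared. In astrocyte-like nuclei against WT-CFC the log2 ratio was 1.76 for Mt1 (1.65 to 1.87), 1.51 for Mt2 (1.26 to 1.76) and 1.16 for Mt3 (1.03 to 1.29). Against WT-naive it was 2.13 for Mt1 (2.00 to 2.25), 2.05 for Mt2 (1.77 to 2.34) and 1.61 for Mt3 (1.47 to 1.75). All 3 passed 1.5-fold, in comparisons that share the KO-CFC library, where 14.9% of 5780 genes were higher and 15.4% lower against WT-CFC, and 16.3% of 5426 higher and 14% lower against WT-naive. Mt1 differed by more than Mt3. The difference of their log2 ratios was 0.60 against WT-CFC (0.43 to 0.77) and 0.52 against WT-naive (0.33 to 0.70). This was not particular to astrocytes. Over all kept nuclei the difference was 0.62 against WT-CFC (0.55 to 0.70) and 0.67 against WT-naive (0.59 to 0.76). In single classes against WT-CFC it ran from -0.12 in oligodendrocyte precursor-like nuclei (-0.78 to 0.53) to 1.06 in microglia-like nuclei (0.59 to 1.53). In the other comparisons, of CFC-14d against Random-14d and of WT-CFC against WT-naive, the interval of the difference spanned 0 in astrocytes.

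Mt1 was higher in 9 of 9 classes against WT-CFC, with log2 ratios of 1.31 to 2.10, and Mt3 in 9 of 9, with 0.73 to 1.62. Mt2 was higher in 4 of 4 classes that had enough counts. In these classes together 14.7% of genes were higher and 7.94% lower by 1.5-fold, and 7.88% to 20% were higher in single classes. Against WT-naive it was 8 of 8 classes for Mt1, 3 of 3 for Mt2 and 9 of 9 for Mt3, where 16.5% of genes were higher and 7.09% lower over the classes together, and 8.38% to 21.3% higher in single classes. Granule neuron-like nuclei had 140 CPM of Mt1 in the KO-CFC-labelled library, 42.9 CPM in WT-CFC and 51.4 CPM in WT-naive. Microglia-like nuclei, the resident macrophages of brain, had 483, 139 and 114 CPM of Mt1, and 428, 258 and 230 CPM of Mt3, in the same order. Neuroblast-like nuclei had 342, 78.8 and 91.2 CPM of Mt1. The T or NK-like nuclei of that library had 731 CPM of Mt1, 112 CPM of Mt2 and 538 CPM of Mt3, second to astrocytes, and the wild-type libraries held too few such nuclei to be set against them. The nuclei compared within a class came mostly from different clusters. A single cluster held 1610 of 1703 granule neuron-like nuclei of the KO-CFC-labelled library, with 0 nuclei of WT-CFC and 1 of WT-naive. For CA3-like nuclei it was 1190 of 1297, with 8 and 4, and for oligodendrocyte-like nuclei 339 of 401, with 2 and 0. For microglia-like nuclei it was 618 of 680, with 5 and 1, in a cluster whose leading genes included Cd74 and H2-Ab1 of antigen presentation. The part of this separation in the ratios was not tested.

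**Figure D4:**
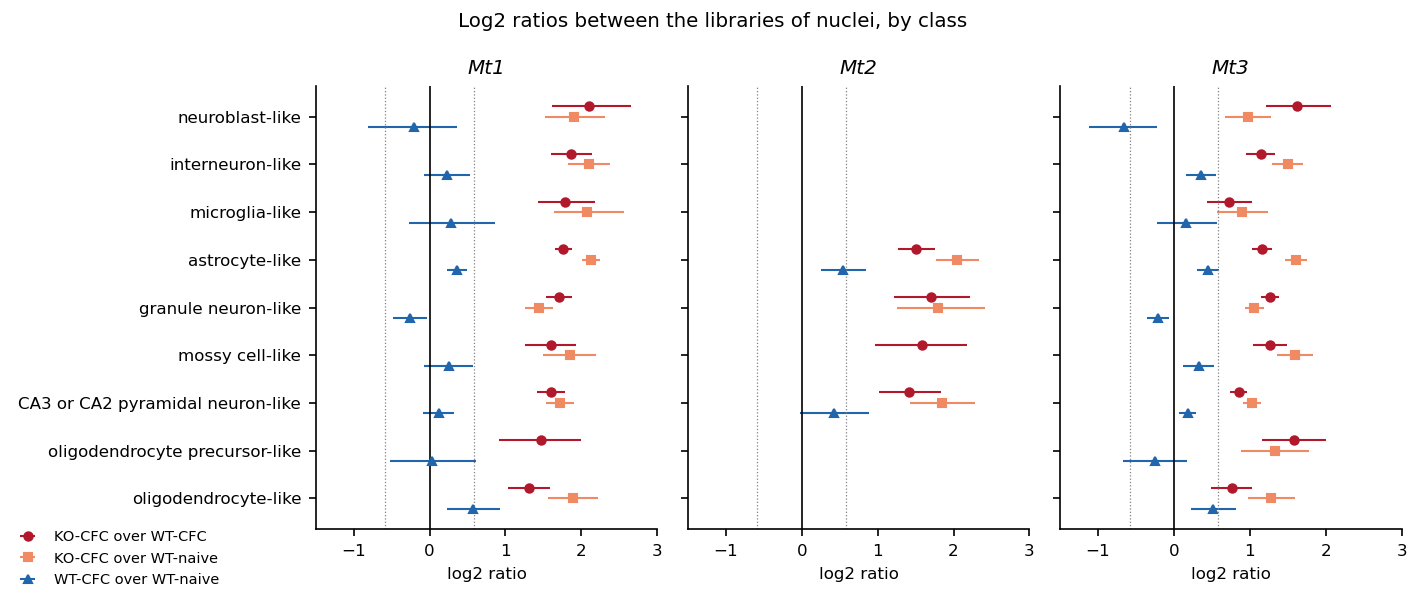
Log2 ratio of each metallothionein by class of nuclei for the 3 comparisons, with 95% counting intervals and dotted lines at 1.5-fold. Ratios against both wild-type libraries lie above 0 throughout, from 0.73 to 2.13 for Mt1 and Mt3 where counts allow, whereas those of WT-CFC against WT-naive lie on both sides of 0.

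Other RNA moved with these values in the KO-CFC-labelled library. The summed RNA of 89 ribosomal protein genes was at 17834 CPM in its astrocyte-like nuclei, 8417 CPM in WT-CFC and 8397 CPM in WT-naive, and was higher in every class, by log2 0.54 to 1.10 against WT-CFC. Scaled to it, the astrocyte ratios against WT-CFC were 0.68 for Mt1, 0.43 for Mt2 and 0.080 for Mt3, and those against WT-naive 1.04, 0.96 and 0.52. Scaled so, Mt3 of microglia-like nuclei turned to -0.37 against WT-CFC and -0.57 against WT-naive. With the metallothioneins among the clustering genes, Mt2 of CA3-like nuclei turned to -0.19 against WT-CFC. Gfap, the filament protein of reactive astrocytes, was at 958 CPM in astrocyte-like nuclei, against 150 CPM in WT-CFC and 111 CPM in WT-naive. It was also at 25.6 CPM in granule neuron-like nuclei, against 2.61 and 3.19 CPM. The 8 astrocyte genes were lower in the KO-CFC-labelled library in both classes. They were at 617 CPM in granule neuron-like nuclei, against 859 and 865 CPM, and at 8669 CPM in astrocyte-like nuclei, against 11590 and 9280 CPM. Microglia markers in the astrocyte-like class, 11 genes, summed to 479 CPM, 102 CPM and 110 CPM, and 12 T or NK markers to 42.6, 4.02 and 3.91 CPM, with Cd8a, Klrb1c and Ncr1 at 0 counts in all 3 libraries. The part of these in the metallothionein values was not tested. In the largest astrocyte-like cluster of the wild-type libraries, which held 46, 844 and 821 nuclei, Mt1 was at 1086, 608 and 510 CPM, Mt2 at 200, 133 and 92.6 CPM and Mt3 at 637, 538 and 426 CPM, in the order KO-CFC, WT-CFC and WT-naive. With 46 nuclei, under the minimum of 100, the KO-CFC values there are a description only.

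In astrocyte-like nuclei the share with a UMI had the same order, with the wild-type libraries close to each other for Mt2. With each barcode thinned to 1000 UMIs, 64.8% of astrocyte-like nuclei of the KO-CFC-labelled library had a UMI of Mt1 (60.3 to 69.2, exact binomial), 41.6% in WT-CFC (38.2 to 45.0) and 29.8% in WT-naive (26.6 to 33.1). For Mt3 it was 54.6%, 39.2% and 29.2%, and for Mt2 21.8%, 10.3% and 8.81%. In CA3-like nuclei, 6.02%, 2.06% and 2.66% had a UMI of Mt1 at this depth, against which the astrocyte shares can be read. The median depths were 1649, 2086 and 1739 UMIs in astrocyte-like nuclei and 7218, 9758 and 8812 UMIs in CA3-like nuclei. Without thinning the astrocyte shares for Mt1 were 75.4%, 61.5% and 45.3%, and the thinning left out 66, 51 and 79 nuclei. Of those thinned, 18.6% of the KO-CFC-labelled library, 33.9% of WT-CFC and 49.8% of WT-naive held no UMI of any member. In the same order, 8.73%, 0.479% and 1.13% held 5 or more of Mt1, so here WT-CFC lay below WT-naive.

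At 1000 UMIs, Mt1 was found in 84.2% of the dissociated astrocyte-like cells in CFC-14d and in 83.3% in Random-14d, Mt3 in 83.2% and 81.5%, and Mt2 in 41.3% and 32.6%. Without thinning the Mt1 shares were 88.6% and 86.9%. In T or NK-like cells the thinned shares were 14.8% and 14.8% for Mt1, 20.8% and 19.3% for Mt3 and 1.69% and 2.29% for Mt2. Their median depths were 2611 and 2105 UMIs, against 887 and 926 UMIs in astrocyte-like cells, of which 333 and 297 were left out. Mt1 was found in 94.3% of astrocyte-like cells that held Mt2 and in 77.1% of those that did not in CFC-14d, and in 93.2% and 78.6% in Random-14d. In the KO-CFC-labelled library these shares were 84% and 59.5%, in WT-CFC 53.5% and 40.2%, and in WT-naive 57.1% and 27.2%.

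**Figure D5:**
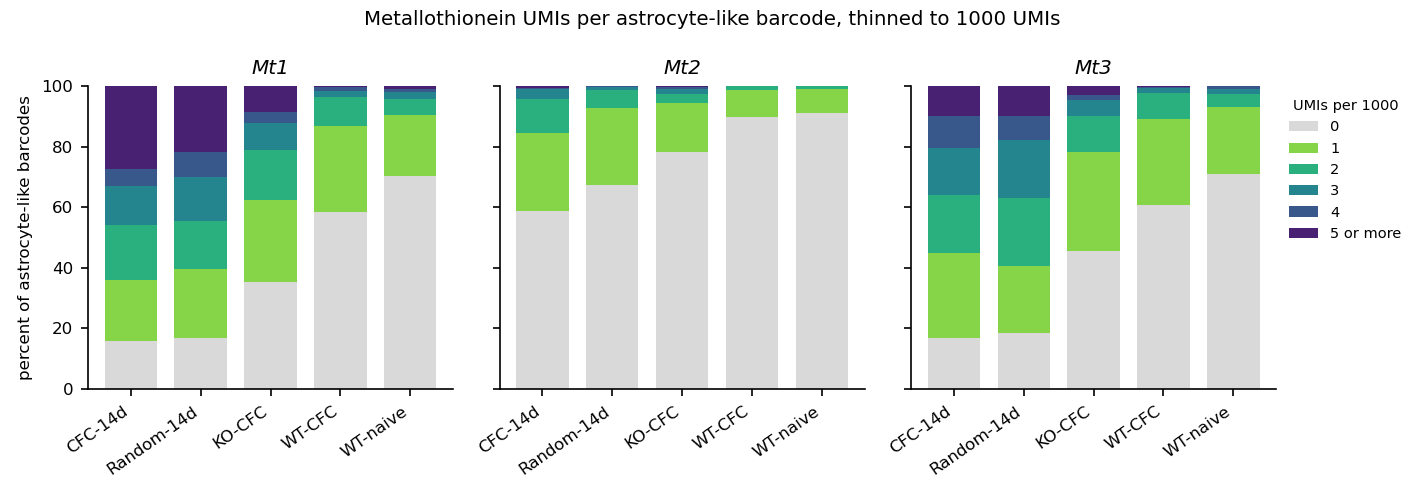
Share of astrocyte-like barcodes, in percent, as stacked bars by their number of UMIs of each metallothionein (0 to 4, and 5 or more) after thinning to 1000 UMIs, 1 bar for each of the 5 libraries. Mt2 is at 0 in most barcodes of every library, and KO-CFC has a smaller share at 0 than WT-CFC and WT-naive for each gene.

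Likeness to other genes was measured by Pearson r of log2 CPM across classes, taken in each library and then as the median over libraries, which share no cells but share classes and cell types. Over 16 classes of cells and 10312 genes, Mt1 was most like Gpam and Mt2 (0.89 for both), and Mt2 most like Gja1, the connexin of astrocytes (0.91), and Ntm (0.91). Mt3 was most like Clu, the clusterin gene, at 0.98, and only 0.47 with Mt1 and 0.48 with Mt2. In nuclei, over 9 to 10 classes and 9859 genes, the members were like each other. Mt1 and Mt3 had r 0.98, Mt1 and Mt2 0.96, and Mt2 and Mt3 0.94. There Mt2 was most like Gja1 (0.97), and Mt3 was next most like Cst3, the cystatin C gene (0.96).

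Lists of genes around the metallothioneins were read in astrocyte-like barcodes, for members with at least 100 counts over both libraries. A gene high in 1 library can pass that minimum through it, so the counts describe the genes read and nothing more. Of all genes in astrocyte-like barcodes, 2.1% were higher and 1.47% lower by 1.5-fold in CFC-14d against Random-14d, and 6.1% and 3.52% in WT-CFC against WT-naive. For the KO-CFC-labelled library it was 14.9% and 15.4% against WT-CFC, and 16.3% and 14% against WT-naive. Zinc carriers and Mtf1 gave 0 of 4 genes past 1.5-fold in CFC-14d against Random-14d, 1 of 9 in WT-CFC against WT-naive, 0 of 6 in the KO-CFC-labelled library against WT-CFC and 0 of 5 against WT-naive. The 1 gene was Slc39a12, a zinc importer of astrocytes, at 246 CPM in WT-CFC and 163 CPM in WT-naive (log2 ratio 0.59). Slc30a9 of the same list lay at the edge of the 1.5-fold rule in the KO-CFC-labelled library against WT-CFC, at -0.58 (-1.04 to -0.17). Of the copper list, 0 of 7 passed in CFC-14d against Random-14d, 0 of 6 in WT-CFC against WT-naive, 1 of 6 in the KO-CFC-labelled library against WT-CFC and 1 of 5 against WT-naive. The gene was Prnp in both, the copper-binding prion protein gene, at 456 CPM in the KO-CFC-labelled library, 236 CPM in WT-CFC and 218 CPM in WT-naive.

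The glucocorticoid list held targets of the hormone and the receptor genes Nr3c1 and Nr3c2. Of its 10 genes read, 2 were higher by 1.5-fold in WT-CFC than in WT-naive and 0 lower, where 6.1% and 3.52% of all genes were, 9 lay above 0 and the median was 0.33, beside 0.03 for all genes. Tsc22d3, the glucocorticoid-induced leucine zipper, was at 87.1 CPM in WT-CFC and 31.3 CPM in WT-naive (log2 ratio 1.47), and Zbtb16, a zinc finger factor induced by the hormone, at 201 and 79.2 CPM (1.34). In the KO-CFC-labelled library against WT-CFC, 0 of 8 were higher and 4 lower, where 14.9% and 15.4% of all genes were. They were the targets Zbtb16 (-1.61), Sgk1 (-1.16) and Tsc22d3 (-1.13) and the mineralocorticoid receptor gene Nr3c2 (-0.79). Against WT-naive, 0 of 7 were higher and 1 lower, Sgk1 at -1.41, where 16.3% and 14% of all genes were. In CFC-14d against Random-14d, 0 of 6 passed in either direction. In the main clustering the metallothioneins lay above 0 in all of these comparisons, which share the WT-CFC or the KO-CFC library among the nuclei. With each library clustered on its own, Mt1 and Mt2 lay below 0 in CFC-14d against Random-14d. Any link between this list and the metallothioneins was not tested.

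In the STAT3 and reactive astrocyte list, most genes high in the KO-CFC-labelled library drew most of their counts from it. No count of the list is therefore given there. Vim, an intermediate filament gene, had 202 counts in it, 20 in WT-CFC and 22 in WT-naive, at 210 CPM against 8.93 CPM in WT-CFC. Gfap is given above, and Cebpd, a factor of the acute phase response, had a log2 ratio of 2.39 against WT-CFC. Stat3, at 0.39 (-0.0012 to 0.76), and Il6st, at 0.37 (-0.25 to 0.95), did not pass 1.5-fold against WT-CFC. Against WT-naive Stat3 was at 0.85 (0.43 to 1.27) and Il6st at 0.32 (-0.31 to 0.91). The NRF2 list held targets of this antioxidant factor and its own gene, Nfe2l2. Of 5 genes read against WT-CFC, Prdx1 (1.05) and Nfe2l2 (0.77) were higher and Me1 (-0.78) lower, where 14.9% of all genes were higher and 15.4% lower. In the dissociation and immediate early list, Junb and Jun were higher by 1.5-fold against WT-CFC and no gene read was lower by that much. Junb, with 85 counts in the KO-CFC-labelled library and 35 in WT-CFC, was at 2.49, and Jun, with 97 and 100 counts, at 1.17. Hsph1, at -0.56 (-0.96 to -0.19), and Hsp90aa1, at -0.11 (-0.36 to 0.13), lay within 1.5-fold, the latter with an interval that spanned 0. The shares of all genes are those given above for this comparison. In CFC-14d against Random-14d, 1 of 12 genes of the dissociation list passed, Fosb at 0.67, where 2.1% of all genes were higher, the median was -0.30 and 1 of 12 lay above 0. There, 0 of 7 genes of the NRF2 list and 0 of 6 of the STAT3 list passed. In WT-CFC against WT-naive, 1 of 7 genes of the NRF2 list passed, the cystine carrier gene Slc7a11 at 0.59, where 6.1% of all genes were higher, with 0 of 3 dissociation genes and 0 of 5 of the STAT3 list.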

How the data were processed

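Each of the 5 libraries was deposited as a matrix of raw counts, the unique molecular identifiers of 78334 genes in each barcode, written by Cell Ranger 8.0.1 per the file headers. Seurat 5.4.0 and build GRCm39 are named in the submitters' processing notes. The labels give 10 mice and 1 library a group, and do not say whether mice were pooled.

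Barcodes with under 500 UMIs, under 300 genes, or over 20% (cells) or 5% (nuclei) mitochondrial counts were left out, and 7.74% to 12.5% were removed by a doublet score. The rule differed: KO-CFC was cut at an automatic threshold of the score (12.5%), and the other libraries lost their highest scores (7.74% to 8.00%). Cells and nuclei were clustered separately (30 principal components of 2000 variable genes without the metallothioneins, Leiden resolution 1; leidenalg 0.10.2, Python 3.11.15). Clusters were named "-like" from marker lists by limits set after the data were seen; names rebuilt this way may differ from the study's, and 19.4% to 41.1% of kept barcodes stayed unnamed. Counts were summed by class and library. Levels have exact Poisson intervals, shares exact binomial ones, and ratios, with 0.5 counts added, conditional exact ones, at 95%; no p-value was computed. A ratio was read from 100 counts over both libraries and 100 barcodes in each, and called past 1.5-fold; this fold rule was tested on simulated data. Named genes were the 3 members, the 5 genes most like each and list members past 1.5-fold in astrocytes. The members and lists were chosen with earlier results of these data known. Alternatives covered cell and doublet filters, clustering, weighting and scaling.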

Additional observations from a re-analysis of the deposited data

Results flagged for a closer look

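In WT-CFC against WT-naive, 3 values lay opposite to those of astrocyte-like nuclei. In granule neuron-like nuclei the log2 ratio was -0.26 for Mt1, against 0.36 in astrocytes, and the difference was 0.63 (0.37 to 0.88). For Mt3 it was -0.21 in granule neurons, against 0.45 in astrocytes, a difference of 0.66 (0.46 to 0.86). For Mt3 in neuroblast-like nuclei it was -0.65, a difference of 1.10 (0.64 to 1.55). Summed ribosomal protein RNA of granule neuron-like nuclei was at 6930 CPM in WT-CFC and 7855 CPM in WT-naive (log2 ratio -0.18), and scaled to it the granule neuron values were -0.081 for Mt1 and -0.031 for Mt3. The intervals of the differences cover counting error, and with 1 library a group the difference was not tested over samples.

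Metallothionein RNA was also found in clusters that no marker list named. Only values above the level in the control library are listed, so their shared direction follows from this choice. Other members and other unnamed clusters are left out, and the share of all genes higher in these clusters is not given. In cluster 3 of the cells, which drew 4365 of its cells from CFC-14d but 267 from Random-14d, Mt1 was at 381 CPM in CFC-14d and 261 CPM in Random-14d, and Mt2 at 34.3 and 16.6 CPM. In cluster 4 (2667 and 1767 cells) Mt1 was at 783 and 613 CPM, Mt2 at 87.3 and 59.5 CPM and Mt3 at 941 and 842 CPM. In cluster 5 (1344 and 1296 cells) Mt1 was at 262 and 191 CPM, Mt2 at 16.0 and 9.21 CPM and Mt3 at 1860 and 1518 CPM. In cluster 10 (422 and 781 cells) Mt1 was at 411 and 308 CPM and Mt2 at 27.5 and 11.0 CPM. In cluster 17 (352 and 288 cells) Mt3 was at 450 and 225 CPM. Among nuclei, cluster 0 (4598 of WT-CFC and 1510 of WT-naive) had Mt1 at 284 CPM in WT-CFC and 223 CPM in WT-naive, and Mt3 at 578 and 464 CPM.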

How the results depend on the processing

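No paired analysis was possible because each group has 1 library. All values here are log2 ratios in astrocyte-like barcodes unless another class is named. Of 117 planned repeats of these ratios 92 stayed within the counting interval and 25 moved outside it, and of 42 added after the data were seen 17 stayed and 25 moved. For Mt1, Mt2 and Mt3, equal weight of barcodes gave 0.057, 0.054 and 0.017 in CFC-14d against Random-14d, 1.42, 1.14 and 0.87 in KO-CFC against WT-CFC, and 1.62, 1.64 and 1.08 in KO-CFC against WT-naive; in WT-CFC against WT-naive Mt1 was 0.21 and Mt3 0.21. Clustering each library on its own gave -0.47 for Mt1 and -0.62 for Mt2 in CFC-14d against Random-14d. Both signs were thus opposite to those of the main clustering, and Mt2 was lower by more than 1.5-fold. A stricter mitochondrial limit gave 2.01, 1.78 and 1.43 for Mt1, Mt2 and Mt3 in KO-CFC against WT-CFC, and 2.32 for Mt1 and 1.81 for Mt3 against WT-naive. Removing 15% of barcodes as doublets gave 1.62 for Mt1 against WT-CFC, and 1.90 for Mt1 and 1.38 for Mt3 against WT-naive. With the metallothioneins allowed among the clustering genes, Mt1 was 1.59 and Mt3 0.96 against WT-CFC, and Mt1 1.83 and Mt3 1.29 against WT-naive; Mt2 in CA3 or CA2-like nuclei then reversed to -0.19 in KO-CFC against WT-CFC. The cause of these shifts was not tested.

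Of the alternatives added after the data were seen, scaling to ribosomal protein RNA gave 0.68, 0.43 and 0.080 in KO-CFC against WT-CFC and 1.04, 0.96 and 0.52 against WT-naive for Mt1, Mt2 and Mt3, and 0.13 for Mt1 and 0.059 for Mt3 in CFC-14d against Random-14d. It reversed Mt3 in microglia-like nuclei to -0.37 against WT-CFC and -0.57 against WT-naive. Astrocyte-like cluster 3 alone gave 0.85, 0.63 and 0.26 in KO-CFC against WT-CFC and 1.10, 1.15 and 0.59 against WT-naive, with 46 nuclei of KO-CFC, under the minimum of 100 and thus a description only. The largest astrocyte-like cluster of each library gave 1.58 for Mt1 and 0.96 for Mt3 against WT-CFC, 1.83 and 1.30 against WT-naive, and 0.046 for Mt1 and 0.051 for Mt2 in CFC-14d against Random-14d, where it is cluster 15. Cluster 26 alone gave 0.34 for Mt1 in CFC-14d against Random-14d, and in nuclei, under its own number 26, -0.35 for Mt2 and 0.21 for Mt3 in WT-CFC against WT-naive, from 39 and 53 nuclei, also under that minimum. Clustering again with at least 1000 UMIs and 500 genes gave too few astrocyte-like cells for a ratio in cells. Mt2 had fewest counts, so most classes gave no ratio for it.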
